A study of Rattus norvegicus with 10 samples.

Results

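The genes of oxidative phosphorylation were examined in rat liver by respiratory complex. They were chosen by symbol: every gene of the array beginning with Ndufa, Ndufb, Ndufc, Ndufs, Ndufv, Uqcr, Cox4, Cox5, Cox6, Cox7, Cox8 or Atp5, together with Sdha, Sdhb, Sdhc, Sdhd and Cyc1. The rule took 87 of 14217 genes, each read by the probe set with the highest mean among those assigned to that gene alone. Of these, 78 encode subunits: 34 of complex I, 4 of complex II, 8 of complex III, 17 of complex IV and 15 of complex V. The other 9 are 6 complex I assembly factors (Ndufaf genes), the ATP synthase inhibitor Atp5if1, the supercomplex factor Cox7a2l and the pseudogene Cox6c-ps1. Ndufa4 and Ndufa4l2 were counted with complex IV.

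Livers were taken from 10 male rats at an age of 13 weeks and each was hybridised to 1 array. The 5 rats of the N-group had for 30 days eaten a seasoned diet of which instant noodle made up 30% by weight, with 26% of its energy from fat, and the 5 rats of the C-group the same diet lacking the seasonings. Both groups were pair-fed at about 60 g of diet per kg of body weight a day under 12 hours of light, so that noodle, fat and feeding regime were common to them, and the labels used here name no strain. The groups are called seasoned (animals 1, 4, 7, 10 and 13) and control (animals 2, 5, 8, 11 and 14). The label codes put all seasoned samples in row A and all control samples in row B of the arrays, so that diet and row cannot be told apart. The extraction text speaks of brain. Hepatocyte markers stood far above the array median in every liver (mean level over 11 genes 13.00 to 13.11), while 6 of 7 brain markers lay under it, Mbp at 7.26 being the exception.

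Oxidative phosphorylation takes place at the inner mitochondrial membrane. Complexes I and II pass electrons from NADH and succinate to ubiquinone, complex III passes them on to cytochrome c and complex IV to oxygen. Complexes I, III and IV pump protons, and complex V, the ATP synthase, uses the gradient to make ATP. Liver relies on this chain for gluconeogenesis, urea synthesis and the oxidation of fatty acids. A small part of the subunits is encoded in mitochondrial DNA, and the rule holds nuclear genes only.

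The deposited values are log2 signals, and most genes hardly varied in them. Over the 10 livers 2613 genes had an SD over 0.01 and are called varying, and the other 11604 (81.6%) are called near-constant. These terms describe the deposited signals alone. Whether the mRNA of near-constant genes was as steady between livers was not tested. Array medians lay between 6.47 and 6.48. A level is the signal of 1 probe set, and since probe sets differ in how brightly they report, levels are set against the array median and not against one another as amounts of mRNA. Whether a value reflects fewer cells of a type or less RNA per cell cannot be told apart in whole liver.

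Most of the respiratory chain lay well above the array median. All subunits of complexes I, II, III and V did so, with levels from 7.93 for Ndufa5 to 11.48 for Ndufa1 in complex I, from 10.39 for Sdhc to 11.09 for Sdhd in complex II, from 10.19 for Cyc1 to 11.90 for Uqcrq in complex III, and from 9.56 for Atp5me to 12.04 for Atp5mc3 in complex V. Complex IV was divided: 10 subunits stood above the median, up to Cox4i1 at 11.76, and 7 under it, down to Cox8b at 5.84. The 7 were Cox8b, Cox6b2, Cox7b2, Cox6a2, Cox7a1, Cox4i2 and Ndufa4l2, which are isoforms known mainly from heart and skeletal muscle, testis or lung, or, for Ndufa4l2, from low oxygen.

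The isoform pairs followed that division. Cox4i1 read 11.76 and Cox4i2 6.27, Cox6a1 read 11.16 and Cox6a2 6.21, Cox6b1 read 10.66 and Cox6b2 5.99, and Cox8a read 11.61 and Cox8b 5.84. In each of the 4 pairs the isoform found in most tissues was above the array median and the tissue-restricted one under it. Cox7a1 read 6.27, and its partner Cox7a2 has no value among the members because its probe set, at 11.24, is also assigned to Cox7a2l2. Of the muscle markers, 3 of which are these isoforms, 10 of 11 were under the array median, the exception being Myh1 at 11.08.

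**Figure D1:**
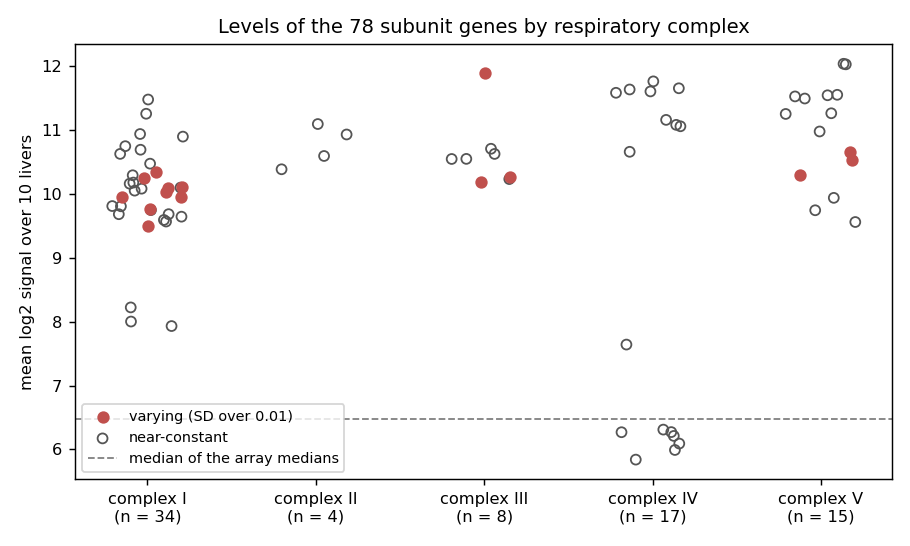
Mean log2 signal over the 10 livers of each of the 78 subunit genes, by complex; filled points are varying genes (SD over 0.01), open points near-constant ones, and the dashed line is the median of the array medians. The 7 complex IV genes under the line are the tissue-restricted isoforms, and complexes II and IV have no filled point.

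Variation of the deposited signals between livers was unevenly spread over the complexes. Among the subunits 15 of 78 were varying: 9 of 34 in complex I, 0 of 4 in complex II, 3 of 8 in complex III, 0 of 17 in complex IV and 3 of 15 in complex V. With the assembly factor Ndufaf4 this made 16 of 87 members (18.4%), the same share as over all genes (18.4%). Genes at high levels differed from this. Above a level of 9, 22.1% of members varied (15 of 68) against 57.0% of all genes (917 of 1608). Above 10 the shares were 21.2% (11 of 52) and 57.0% (428 of 751). These level limits were set after the levels had been seen. The threshold fell in a gap, since the steadiest varying member was Cyc1, with an SD of 0.0297, and the most variable near-constant one Cox7a1, with 0.000611. Signals shared with another gene are not counted here, and of the 7 probe sets concerned 3 varied, those of Atp5mc1, Cox7a2 and Ndufa10. Seasoned minus control they differed by 0.167, 0.0573 and 0.0281. The first is above the largest difference of any member, 0.1335 for Ndufaf4. The diet difference of these shared signals was not tested.

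No respiratory chain gene among the members was called different between the diets. By limma with Benjamini-Hochberg adjustment 0 of 87 members passed an adjusted p of 0.05 over all genes, where 0 of 14217 genes did (0% of those tested), and the smallest adjusted p of a member was 0.996. In the fit on varying genes alone 0 of 16 members passed, against 4 of 2613 genes (0.153%), and the smallest was 0.622, for Atp5po. At an unadjusted p of 0.05, 0 members were higher with seasoning, where 2.95% of all genes were, and 1 was lower, where 1.75% were. That 1 was Cox6a2, a muscle isoform under the array median, whose difference was -0.0001 (adjusted p = 0.996, limma). In the fit on varying genes 0 of 16 members reached an unadjusted p of 0.05, against 12.1% of varying genes. For 0 members did the 5 seasoned and 5 control livers fail to overlap, against 2.72% of varying genes and 0.879% of all genes.

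In complex I, which has a peripheral arm that oxidises NADH and a membrane arm that pumps protons, the varying genes were Ndufv2, Ndufv3, Ndufs3, Ndufs6, Ndufs7 and Ndufs8 of the peripheral arm and the accessory genes Ndufa11, Ndufb2 and Ndufb7 of the membrane arm. Of these 9 means 8 were higher with seasoning, and their median difference was 0.06. Ndufa11, an accessory subunit of the membrane arm, had the largest difference. Its signals were 10.11, 9.97, 10.18, 9.82 and 10.01 in seasoned animals 1, 4, 7, 10 and 13, and 10.05, 10.01, 9.62, 9.83 and 9.93 in control animals 2, 5, 8, 11 and 14. The diets overlapped, with control 8 lowest and seasoned 7 highest. The difference was 0.13 (SE 0.0961, 95% interval -0.08 to 0.34, fit on varying genes; exact permutation p = 0.23, two-sided, n = 5 in each group). Without control 8 it was 0.0626.

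Ndufb7, another accessory subunit of the membrane arm, varied little. It read 10.07, 10.01, 10.09, 9.99 and 10.05 in the seasoned livers, in the same order of animals, and 10.03, 10.05, 9.99, 9.95 and 10.03 in the controls. The whole spread was narrow, and control 11 was lowest. The difference was 0.03 (95% interval -0.07 to 0.14; exact permutation p = 0.222, n = 5 in each group). The remaining complex I differences ran from -0.02 for Ndufv3 to 0.07 for Ndufs6, and each interval spanned 0. The widest was that of Ndufb2, from -0.33 to 0.44, so that a change within those bounds cannot be told from none with these arrays.

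Of the 3 varying genes of complex III, Uqcrc1 encodes a core protein, Cyc1 the haem protein cytochrome c1 and Uqcrq a small subunit. All 3 means were higher with seasoning, with a median difference of 0.03. Cyc1 read 10.23, 10.19, 10.22, 10.16 and 10.21 in the seasoned livers and 10.20, 10.20, 10.19, 10.13 and 10.18 in the controls. Uqcrc1 read 10.44, 10.35, 10.37, 10.11 and 10.21 in the seasoned livers and 10.38, 10.34, 10.21, 10.07 and 10.14 in the controls. In both genes control 11 was lowest and seasoned 1 highest, and the diets overlapped. The differences were 0.02 for Cyc1 (95% interval -0.08 to 0.12; exact permutation p = 0.246, n = 5 in each group) and 0.07 for Uqcrc1 (-0.12 to 0.25; p = 0.429).

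Complex V had 3 varying genes: Atp5po, the stalk protein also called OSCP, Atp5f1d, the delta subunit of the central stalk, and the small membrane subunit Atp5mk. Atp5po had the smallest p of all varying members. It read 10.66, 10.58, 10.64, 10.47 and 10.56 in the seasoned livers and 10.58, 10.62, 10.45, 10.36 and 10.33 in the controls. The 3 lowest values were controls 14, 11 and 8, and controls 2 and 5 lay within the seasoned range. The difference was 0.12 (SE 0.0722, 95% interval -0.04 to 0.28; exact permutation p = 0.111, n = 5 in each group). Atp5f1d read 10.48, 10.35, 10.44, 10.15 and 10.17 in the seasoned livers and 10.37, 10.40, 10.25, 10.16 and 10.28 in the controls, which overlapped throughout, for a difference of 0.02 (-0.16 to 0.21). The third, Atp5mk, had a difference of -0.02 (-0.20 to 0.17). Atp5po has 2 probe sets, and with their mean its difference was 0.0580 in place of 0.1161.

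**Figure D2:**
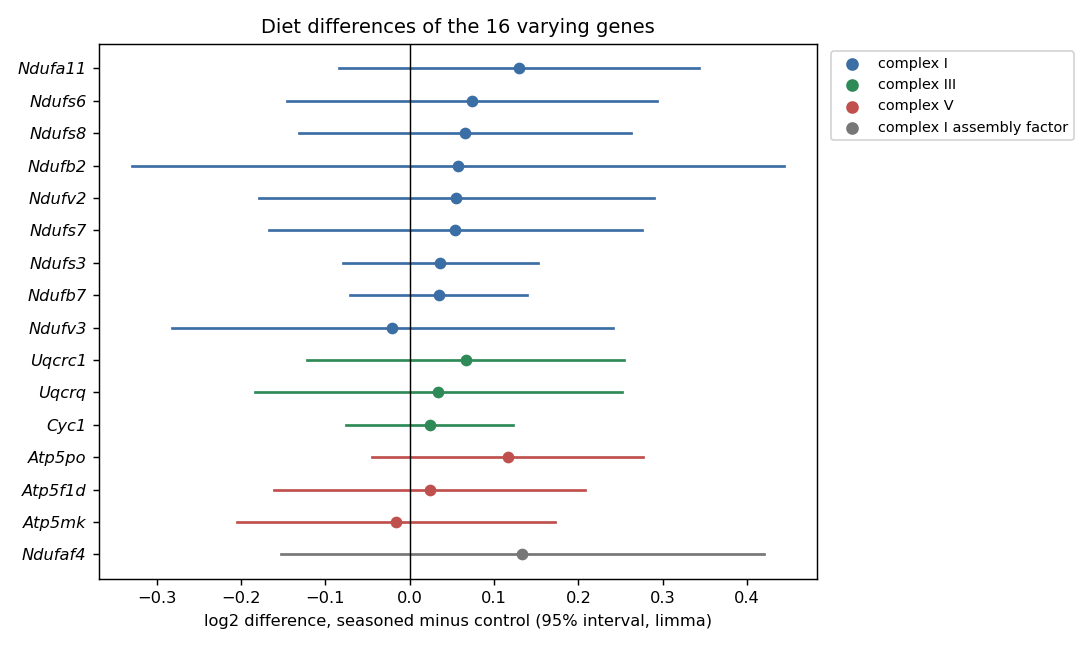
Log2 difference, seasoned minus control, of the 16 varying genes (points) with 95% limma intervals (lines), coloured by complex. Every interval crosses 0, and the points lie between -0.02 for Ndufv3 and 0.13 for Ndufaf4.

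Among the members that are no subunit only Ndufaf4, a complex I assembly factor, varied. It read 7.92, 7.74, 7.98, 7.90 and 8.38 in the seasoned livers and 7.78, 8.02, 7.99, 7.54 and 7.91 in the controls, with seasoned 13 highest and control 11 lowest. The difference was 0.13 (SE 0.1288, 95% interval -0.15 to 0.42), and it was 0.0350 without seasoned 13 and 0.0565 without control 11.

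The direction was mostly upward, and it depended on which livers were compared. Of the 15 varying subunits 13 had a higher mean with seasoning (86.7%), against 57.3% of all varying genes, and the medians were 0.06, 0.03 and 0.02 in complexes I, III and V. With the animal numbers 1 to 7 and 8 to 14 as a block the count was 9 of 15, against 46.5% of all varying genes. Within animals 1 to 7 it was 7 of 15, against 49.1%. Within animals 8 to 14 it was 12 of 15, against 47.3%. Without control 11 it was 10 of 15, against 45.7%, and without control 2 it was 15 of 15, against 60%. Near-constant subunits were higher in 51 of 63 cases (81.0%) against 53.5% of all near-constant genes, but none of the near-constant members differed by more than 0.000358.

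The livers of 1 diet spread more widely than the diets differed. Averaged over the 15 varying subunits and set against the control mean, seasoned animals 1, 4, 7, 10 and 13 read 0.16, 0.05, 0.13, -0.07 and -0.03. Control animals 2, 5, 8, 11 and 14 read 0.16, 0.11, -0.07, -0.15 and -0.04. In both diets the animals numbered 1 to 7 read above 0 and those numbered 8 to 14 below it, and the diets overlapped. The difference between diets was 0.05, where the SD between livers was 0.10 in the seasoned group and 0.13 in the controls, and the mean of all 2613 varying genes differed by 0.01. That mean also stood above 0 in animals 1 to 7 and below 0 in animals 8 to 14. The labels used here do not say what the animal numbers stand for. Array position rose with animal number, from 2 to 6 in the seasoned and from 1 to 5 in the control livers. Within a diet, animal number and array position therefore cannot be told apart. Control 11 had the lowest signal in 10 of the 15 subunits and seasoned 1 the highest in 8.

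Markers of Kupffer cells, the macrophages of the liver, were divided by animal number in the same way. Their mean level over 8 genes was 8.35 to 8.53 in animals 1 to 7 and 7.97 to 8.21 in animals 8 to 14, without overlap. In 5 of the 7 varying markers every animal of the first set lay above every animal of the second, and in all 7 the mean was higher in the first. Clec4f, a lectin of Kupffer cells, read 10.42, 10.63, 10.38, 9.70 and 9.84 in the seasoned livers and 10.22, 10.17, 9.84, 9.68 and 9.86 in the controls. In the other 8 marker lists 0 varying genes were divided in this direction, and the ranges of the list means overlapped. The hepatocyte marker Cps1 and the stellate cell markers Dcn and Lum were divided the other way. In animals 1 to 7 Cps1 read 12.70 to 12.94, and in animals 8 to 14 it read 12.96 to 13.35. Dcn read 6.57 to 6.88 and 6.96 to 7.62, and Lum 5.6524 to 5.8168 and 5.8223 to 5.9535. The lowest Kupffer mean was in seasoned 10, and that of the subunits in control 11. The part of these cells in the subunits' values was not tested.

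**Figure D3:**
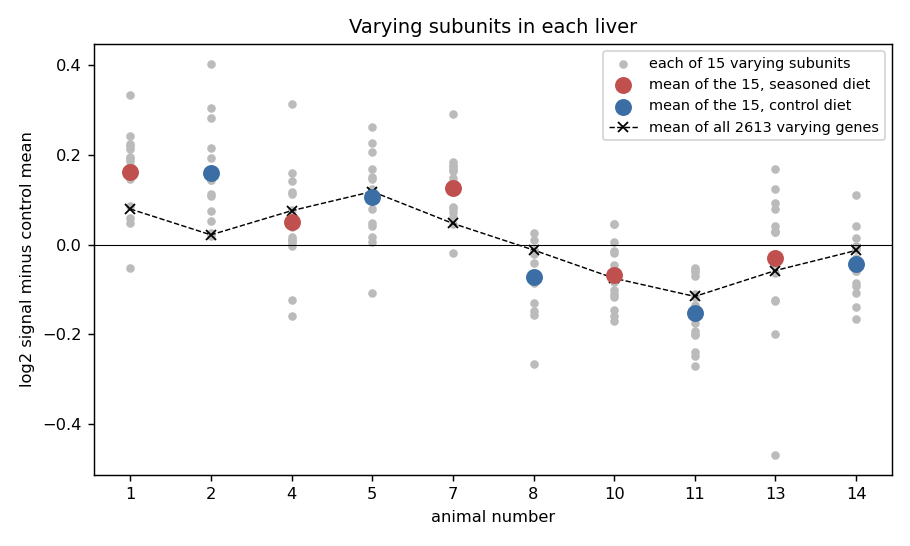
Log2 signal minus the control mean in each liver, ordered by animal number: grey points are the 15 varying subunits, large points their mean in seasoned and control livers, and crosses the mean of all 2613 varying genes. Animals 1 to 7 lie above 0 in both diets and animals 8 to 14 below it.

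The varying subunits were high or low together from liver to liver. After each diet was centred on its mean, all 105 pairs had a correlation above 0, with a median of 0.748, against a median of 0.227 over pairs of all varying genes, of which 66.0% were above 0. These points share 10 livers and their arrays. Pairs within and between complexes had medians in the same range: the median was 0.686 within complex I, 0.793 between complexes I and III, 0.760 between I and V and 0.863 between III and V. Uqcrc1 was most like the other subunits (median 0.859) and Ndufv3 least (0.295). Centred on diet and number set as well, the median was 0.484, with 88 of 105 pairs above 0, against 0.143 for all varying genes, and without control 11 it was 0.702, with 99 of 105 above 0, against 0.196. These 2 alternatives, and the comparison that follows, were added after the data had been seen.

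Near-constant subunits were checked for the same pattern, each gene scaled to its own SD, although their SDs were under 0.001. Their mean followed that of the varying subunits over the 10 livers with a Pearson r of 0.816 and a Spearman rho of 0.806, against 0.350 and 0.139 for near-constant genes that are no members. Without the 2 livers farthest from the median, control 2 and seasoned 1, r was 0.686, and centred on number set it was 0.943. The complexes were unlike one another. The near-constant genes of complexes I and V gave 0.916 and 0.924, those of complexes II, III and IV -0.075, 0.081 and 0.257. Complex IV divided at level 7, a limit chosen after the levels had been seen, gave 0.736 for the 10 genes above and -0.538 for the 7 tissue-restricted genes under it. These values are given as descriptions, with no test.

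**Figure D4:**
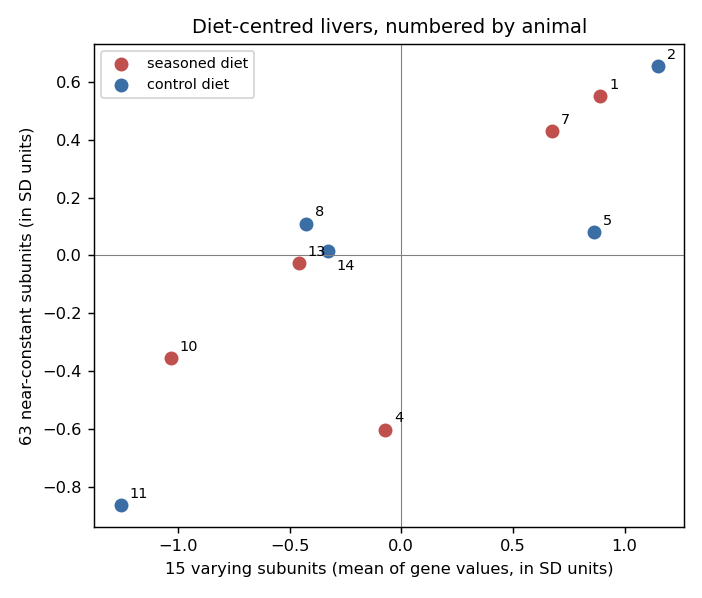
Mean of the 63 near-constant subunits against mean of the 15 varying subunits in each liver, both in units of each gene's SD after centring each diet; numbers are animals. Control 11 lies lowest on both axes and control 2 highest, and seasoned 4 lies away from the rest at -0.602 on the vertical axis.

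By Pearson r over the 10 diet-centred livers, the genes outside the rule most like the mean of the varying subunits were Med24 (0.984), Rex1bd (0.983), Cideb (0.981), Gtf3c5 (0.978) and Adgrl1 (0.977). Of these Med24, Gtf3c5 and Adgrl1 were near-constant. Among varying genes the list was Rex1bd, Cideb, Timm13 (0.977), Dcxr (0.976) and Txnrd2 (0.973). Of the listed genes Timm13 takes part in protein import into mitochondria and Txnrd2 is the mitochondrial thioredoxin reductase. Roles of the others are not given here, and whether the lists share a role was not tested. The genes were picked for the highest r in these same data.

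The promoters were read for letters known from respiratory genes, with varying and near-constant subunits apart. That split does not divide genes that moved together from genes that did not. Near-constant genes of complexes I and V followed the varying subunits over the livers (r of 0.916 and 0.924). Whether the letters go with shared movement was not tested. RefSeq promoters of the GRCr8 assembly were matched for 70 of 78 subunits, 14 of them varying, and 3 motifs were searched on both strands in the 250 bases before the start. The NRF1 letters were GCGC, any 2 bases and GCGC again, which read the same on both strands; the others were CCGGAAG for ETS factors and AAGATGGC for YY1. The NRF1 letters occurred in 6 of 14 varying subunits (42.9%) and in 5 of 56 near-constant ones (8.93%). They occurred in 9.69% of the promoters of measured genes, 9.44% of those of varying genes and 5.30% of all promoters. The ETS letters occurred in 28.6% and 26.8%, against 12.9% of measured genes, and the YY1 letters in 0 and 3.57%, against 1.89%. Of the 3 motifs only the NRF1 letters had shares that far apart, and no test was made. With AT as the middle bases, the form nearest the textbook site, the counts were 2 of 14 and 1.79%. A match is a description of the letters and not a binding site.

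The 6 varying subunits with the NRF1 letters are shown by the 40 bases around them, 5′ to 3′ on the gene's strand, with the matching letters in capitals; overlapping matches run on in Ndufa11 and Ndufs6. They lie at chr9:1637508-1637547 (plus strand) for Ndufa11, chr1:31797360-31797399 (plus) for Ndufs6, chr9:113157551-113157590 (minus) for Ndufv2, chr20:9613732-9613771 (plus) for Ndufv3, chr8:118468144-118468183 (plus) for Uqcrc1 and chr11:44657518-44657557 (minus) for Atp5po.
Ndufa11: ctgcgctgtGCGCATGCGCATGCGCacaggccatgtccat
Ndufs6: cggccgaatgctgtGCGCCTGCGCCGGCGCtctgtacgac
Ndufv2: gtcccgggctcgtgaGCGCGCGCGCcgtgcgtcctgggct
Ndufv3: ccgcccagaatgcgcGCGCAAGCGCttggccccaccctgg
Uqcrc1: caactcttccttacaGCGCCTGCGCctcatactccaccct
Atp5po: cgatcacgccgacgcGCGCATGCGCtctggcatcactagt
In each promoter the match nearest the start began between 20 and 91 bases before it, closest in Ndufs6 and farthest in Ndufa11, and the overlapping matches of these 2 genes began further upstream. Ndufv3, which holds the letters, was the subunit least like the others in its values.

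Genes around the chain were listed by role, and 0 of any list passed an adjusted p of 0.05 by limma in either fit. Among 12 electron carrier and ubiquinone genes 1 was higher and 1 lower at an unadjusted p of 0.05. Of all genes 2.95% were higher and 1.75% lower at that level, and 12.1% of varying genes reached it in their own fit. Coq8a, a kinase-like protein of ubiquinone synthesis, differed by 0.25 (95% interval 0.02 to 0.47; adjusted p = 0.338, limma on varying genes). Coq10b, a ubiquinone-binding protein, differed by -0.38 (-0.70 to -0.06; adjusted p = 0.296). Of 12 nucleotide, phosphate and proton carriers 1 was lower at that level: Slc25a25, the ATP-Mg and phosphate carrier, whose signals were 8.41, 7.27, 7.84, 8.51 and 7.74 with seasoning and 8.12, 9.71, 8.50, 9.28 and 9.68 in controls. The difference was -1.10 (-1.88 to -0.32; adjusted p = 0.209), with controls 5, 11 and 14 above every seasoned liver.

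Assembly factors gave 1 of 18 higher for complex I, 1 of 4 for complex II, 0 of 9 for complex III, 1 of 25 for complex IV and 0 of 6 for complex V at an unadjusted p of 0.05, and 0 lower in each list. Together this was 3 of 62 genes (4.84%), against 2.95% of all genes. The 3 genes, named after their values were seen, were Tmem186, Sdhaf4 and Cmc1, of which the first 2 were near-constant. Cmc1, a complex IV assembly factor, differed by 0.19 (0.03 to 0.36; adjusted p = 0.294). Of 20 regulators of mitochondrial biogenesis 0 reached an unadjusted p of 0.05. Of the 5 varying ones 4 had a higher mean with seasoning, where 57.3% of all varying genes did. Their median difference was 0.10, and their smallest adjusted p was 0.777 (limma on varying genes). Ppargc1a, Nrf1, Esrra and Tfam were among the near-constant ones, at levels of 6.49, 6.68, 7.33 and 8.53. The level of Ppargc1a was close to the array median. In the tricarboxylic acid cycle 1 of 15 genes was higher at that level, the near-constant Mdh2, malate dehydrogenase, at a difference of 0.000329. Idh2, the mitochondrial NADP-linked isocitrate dehydrogenase, had the smallest p of its varying genes and differed by 0.16 (-0.11 to 0.42).

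Between the diets, Kupffer cell markers had mean levels of 7.97 to 8.53 in seasoned and 8.11 to 8.35 in control livers, and 0 of 8 reached an unadjusted p of 0.05. Of the 4 varying hepatocyte markers 1 had a higher mean with seasoning and 3 a lower one, with differences of -0.09 for Cps1, -0.24 for Tat and -0.03 for Cyp2e1. The higher one, Apoa1, the main apolipoprotein of HDL, did not overlap between the diets, at 12.20 to 12.45 with seasoning and 11.88 to 12.17 in controls (adjusted p = 0.213, limma on varying genes), as was the case for 2.72% of varying genes.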

How the data were processed

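The authors deposited 1 log2 signal per probe set and array; the labels' protocols describe biotin labelling of cRNA from 100 ng of RNA, and the summary and normalization methods are not given in the sources used here. Of 31099 probe sets 57 controls were left out, 20826 were assigned to 1 gene, 436 to several and 9780 to none in the platform's table. For 20758 of those assigned to 1 gene the symbol was taken from the RefSeq table of GRCr8, whether or not it had changed. Diets were compared with limma 3.58.1 in R 4.3.3 (lmFit and eBayes, two-sided, Benjamini-Hochberg) over 14217 genes, and again over the 2613 varying genes, whose SEs and intervals are those printed. Single genes had an exact permutation test, whose smallest possible p is 0.00794. The scripts were tested on simulated data. Arrays have no read depth, and 5 livers in each group limit the precision. P-values measure the spread between the numbered animals. Named genes were all varying members, with values in each liver for the 2 of smallest p in each complex. The isoform pairs and the 5 most alike outside genes were named as well. So were the 2 varying genes of smallest p of each list where they bore on a result. Other genes were named outside these rules, among them Clec4f, Cps1, Dcn, Lum, Mdh2, Ppargc1a, Nrf1, Esrra and Tfam. The members, lists and split into varying genes were chosen with earlier results of these data known.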

Additional observations from a re-analysis of the deposited data

How the results depend on the processing

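Under every alternative run, 0 members were called at an adjusted p of 0.05 in either fit, while calls over all genes did change. The fit on varying genes called 224 of 2613 with array weights (8.57%), 90 with array position as a covariate, 55 within animals 1 to 7, 52 without control animal 11 and 33 after centring, against 4 as reported, and the fit over all genes called 129 of 14217 after centring (0.907%). At an unadjusted p of 0.05 the number of higher members, 0 as reported, was 13 with array weights (14.9%, against 8.05% of all genes), 10 with position (11.5% against 6.33%), 7 with an assumed pairing of neighbouring animals (8.05% against 3.57%), 3 with the number set as a block (3.45% against 3.26%) and 11 without seasoned animal 10 (12.6% against 4.8%). That of lower members, 1 as reported, ran from 0 to 2; the cause was not tested. The diets share no animal number, so that pairing rests on an assumption and not on the labels.

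The differences of 10 uncalled members changed sign somewhere. With the number set as a block Atp5f1d was -0.0182, Ndufb2 -0.0444, Ndufs7 -0.0010 and Uqcrq -0.0181. With position as a covariate Atp5mk was 0.0520. Within animals 1 to 7 Ndufs8 was -0.0423, Ndufb2 -0.0090, Ndufaf4 -0.0253, Ndufs7 -0.0053, Uqcrq -0.0785, Ndufs6 -0.0214 and Ndufv2 -0.0553. Within animals 8 to 14 Atp5f1d was -0.0741, Ndufb2 -0.0798 and Ndufv3 0.1621. With each liver left out in turn Atp5mk ran from -0.0667 to 0.0298, Atp5f1d from -0.0171 to 0.0661, Ndufb2 from -0.0117 to 0.1889, Uqcrq from -0.0140 to 0.0880 and Ndufv3 from -0.0830 to 0.0802. Centring the arrays on varying genes moved the median of all genes by -0.02. It left 13 of 15 subunits higher, against 47.7% of all varying genes. But the median of the varying members went from 0.0545 to 0.0311. Cyc1 went from 0.0237 to 0.0003, Atp5f1d from 0.0238 to 0.0004 and Ndufb7 from 0.0342 to 0.0108.

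Of the choices added after the data had been seen, centring on number set moved the median pair correlation from 0.748 to 0.484, and AT as the middle bases moved the NRF1 share from 42.9% to 14.3%. With 1 free middle base the share was 35.7%, against 8.93% of near-constant subunits and 7.66% of measured genes. With a window reaching 50 bases past the start it was 42.9%, against 14.3% and 11.2%. With SD limits of 0.05 and 0.1 it was 46.2% and 50%. A level limit of 9.5 was tried first and dropped, because it fell on the lowest varying subunit. In 32 groups of values 0 livers stood apart by Dixon's criterion, where chance gives about 1.6.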
